A study of Mus musculus with 6 samples.

Results

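The 10 genes described here encode 9 apolipoproteins (Apoa1, Apoa2, Apoa4, Apoa5, Apob, Apoc1, Apoc2, Apoc3 and Apoe) and the microsomal triglyceride transfer protein (Mttp). They were chosen by gene name, and each name was found once among the 56534 genes or loci of the deposited table. Liver RNA was sequenced from C57BL/6 mice, with 3 libraries from wild-type animals (CON 1 to CON 3) and 3 from animals labelled CD36-/-, in which the study's title places the deletion in hepatocytes (LKO 1 to LKO 3). Both groups had eaten a diet with 60% of its energy as fat for 16 weeks. The labels used here give no age or sex, and they do not name the Cre driver of the deletion. They number the libraries without saying that each came from its own animal, so each p-value speaks only to the spread among the libraries, part of which may be technical.

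Apolipoproteins are the protein coat of plasma lipoproteins, and the liver is their main source together with the intestine. In hepatocytes, MTTP loads triglyceride onto newly made APOB in the endoplasmic reticulum, which gives the core of very low density lipoprotein (VLDL). The smaller apolipoproteins exchange between particles: APOA1 and APOA2 form high density lipoprotein (HDL), APOC2 activates lipoprotein lipase, APOC3 and APOC1 slow particle clearance, APOA5 favours it, and APOE is a ligand of the receptors that take up remnants. CD36 brings long-chain fatty acids, the substrate of VLDL triglyceride, into the cell.

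Apoa1, Apoc3, Apoa4 and Apoa5 lie in this order in 1 gene cluster on chromosome 9, and Apoc2, Apoc1 and Apoe in another on chromosome 7. The upstream sequences of Apoa1 and Apoa5 are shown because these genes lie at the ends of 1 cluster and their ratio is followed in the results, and that of Apob because its product is the core protein of VLDL. Each run covers 250 to 51 bases before the RefSeq start on the forward strand of build GRCm38.p6, at chr9:46228380-46228579 for Apoa1, chr9:46268358-46268557 for Apoa5 and chr12:7977427-7977626 for Apob. This build is later than the mm9 of the submitters' notes. Capitals mark matches to the motifs named below.
Apoa1: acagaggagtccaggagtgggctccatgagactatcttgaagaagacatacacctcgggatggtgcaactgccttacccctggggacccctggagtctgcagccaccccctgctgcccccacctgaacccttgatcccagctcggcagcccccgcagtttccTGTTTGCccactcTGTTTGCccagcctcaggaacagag
Apoa5: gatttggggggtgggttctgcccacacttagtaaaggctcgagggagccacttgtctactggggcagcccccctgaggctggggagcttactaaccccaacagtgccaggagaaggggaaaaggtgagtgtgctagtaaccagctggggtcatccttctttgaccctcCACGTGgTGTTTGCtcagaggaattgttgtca
Apob: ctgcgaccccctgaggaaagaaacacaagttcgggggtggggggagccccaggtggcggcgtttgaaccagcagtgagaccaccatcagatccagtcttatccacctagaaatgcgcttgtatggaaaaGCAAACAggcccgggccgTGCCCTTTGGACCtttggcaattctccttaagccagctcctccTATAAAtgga

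The RefSeq table held a start for 8 of the 10 genes. The motifs were searched on both strands of these 200 bases, and matches in the 3 runs shown do not overlap. The forkhead core TGTTTNC, bound by factors such as FOXA2 and FOXO1, was found in 4 of the 8 genes and in 14.9% of 27025 promoters. Apoa1 held it at 2 places, and Apoa5 and Apob at 1 each, in Apob on the reverse strand. The DR1 element, a repeat of the half-sites that nuclear receptors such as HNF4A bind, was searched in a loose form and found in 4 of the 8 genes, among them Apob, and in 5.1% of promoters. The E-box CACGTG was found in Apoa5 alone of the 8 and in 4.4% of promoters. The letters TATAAA of the TATA box were found in 2 of the 8 and in 9.5% of promoters. Relative to the RefSeq start they began at -60 in Apob and at -212 in Apoa2. The searched bases stop short of the start, so a TATA box closer to it would be missed. The search therefore cannot say which of these genes have or lack a TATA box. The half-site AGGTCA was found in 1 of the 8, Apoc2, inside its DR1 match, and in 11.2% of promoters. The windows of Apoa4 and Mttp are counted among the 8 although, by GENCODE M21, that of Apoa4 crosses its gene start and that of Mttp lies inside the gene. The DR1 match of Apoa4 lies inside the gene. These matches describe letters and do not show binding.

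Values are FPKM, fragments scaled to the gene's length and the library's mapped fragments, so levels can be compared between genes per length. Cd36 was lower in every LKO library than in every CON library (2.73 to 10.2 against 19.7 to 61.95 FPKM), with a log2 fold change of -2.50 (adjusted p = 0.163, limma) and with LKO 3 the highest of the LKO libraries. Summed FPKM ran from 831928 to 976871 in CON and from 959442 to 1271880 in LKO. Defining hepatocyte genes such as Alb and Ttr were abundant in all libraries, and the 8 hepatocyte markers summed to between 43927 and 68927 FPKM in CON and between 31448 and 43885 FPKM in LKO. The part of that shift in the members' values was not tested. The intestine also makes Apoa4 and Apob, but 5 of the 7 enterocyte markers (Lct, Alpi, Sis, Cdx1 and Cdx2) were listed at 0 in all 6 libraries and Vil1 at 0.15 FPKM or less. The remaining one, Fabp2, was at 132 to 218 FPKM in CON and 180 to 229 FPKM in LKO. Macrophages also make APOE, and the 8 Kupffer cell and macrophage markers, none at 0, summed to between 123 and 182 FPKM in CON and between 91.1 and 184 FPKM in LKO. The 5 endothelial markers summed to between 13.1 and 42.9 FPKM in CON and between 16.8 and 24.4 FPKM in LKO. In whole liver, fewer cells of a type and less RNA per cell cannot be told apart.

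Together the members made up 8.62% to 11.3% of all FPKM in CON libraries and 8.74% to 10.1% in LKO libraries. These shares depend on the total, of which the major urinary protein (Mup) genes held 6.22% to 22.1% in CON and 23.9% to 29.4% in LKO. The summed FPKM of the members ran from 84202 to 93874 in CON. It was 119533, 120672 and 83807 in LKO 1, LKO 2 and LKO 3. Apoe, at a mean of 34713 FPKM over the 6 libraries, held the first rank of all genes in the table. Apoa2 (27751 FPKM), Apoa1 (14644 FPKM), Apoc1 (11983 FPKM) and Apoc3 (5211 FPKM) followed among the members, and each of them was among the 39 most abundant genes. Apoa5, Apob and Apoa4 were close to each other at 1176, 937 and 916 FPKM, Apoc2 was at 442 FPKM and Mttp at 85.4 FPKM. Several neighbours in this order were not separated in every library. Apob was above Apoa4 in 3 of 6 libraries, all of them CON, and below it in every LKO library. Apoa1 was above Apoc1 in 4 of 6, and Apoe above Apoa2, Apoa5 above Apob and Apoa4 above Apoc2 in 5 of 6 each.

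**Figure D1:**
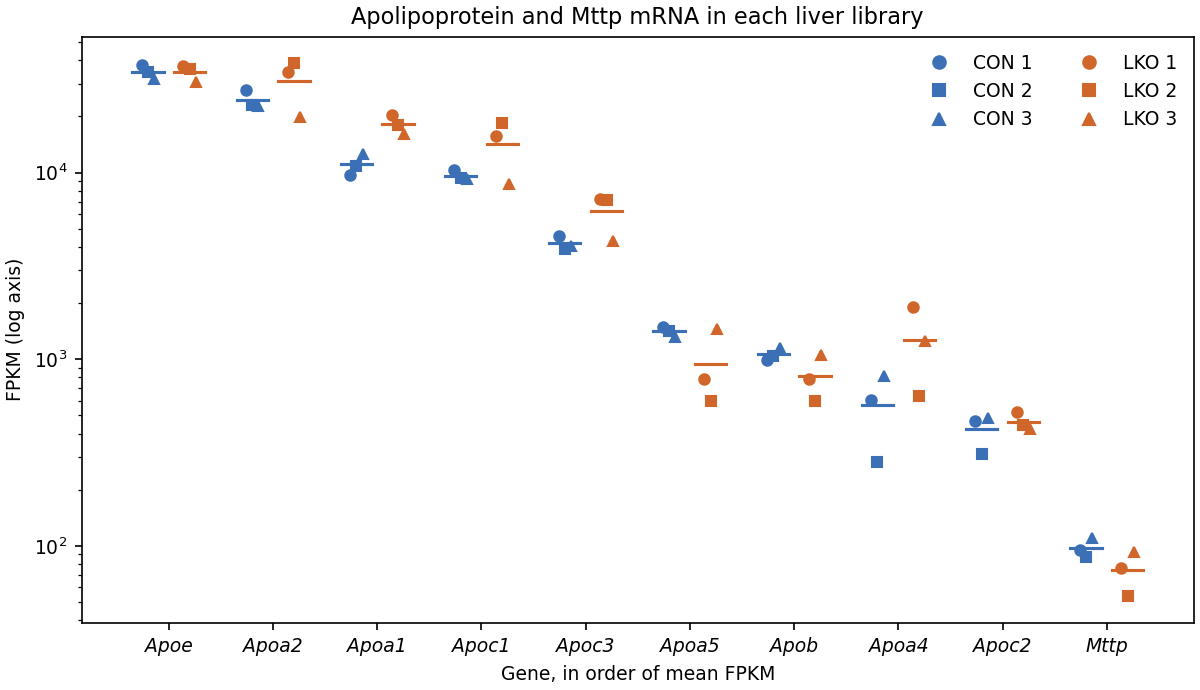
FPKM (log axis) of the 10 genes in each of the 6 libraries, ordered by mean; symbols are single libraries and lines are group means. Apoa1 is the gene whose 3 LKO libraries (16036 to 20480.5 FPKM) all lie above its 3 CON libraries (9739.5 to 12586 FPKM), while the LKO triangle (LKO 3) of Apob, Mttp, Apoa5, Apoc3 and Apoc2 lies within the CON range.

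The comparison of LKO with CON asks how hepatocyte loss of CD36 goes with the mRNA of lipoprotein proteins. No member passed an adjusted p under 0.05 over all genes in limma, against 1 of 11104 genes tested (0.00901%). At an unadjusted p under 0.05, 2 members were higher (Apoa1 and Apoa4) and 0 lower, against 3.25% of all genes higher and 18.9% lower. The groups did not overlap for 1 member in the higher direction (Apoa1) and 0 in the lower, against 3.92% and 24.3% of all genes. The median log2 fold change of the 10 members was 0.22, beside -0.23 for all genes, and 7 of the 10 lay above that median. Median-ratio scaling of the libraries moved the median of all genes to -0.01 and that of the members to 0.49. Apoa1, Apoa4 and Apoc3 were then higher without overlap, as were 1308 of the 11104 genes, against 435 as deposited. Bringing all libraries to one total moved the medians the other way, to -0.48 for all genes and -0.09 for the members. In that setting 0 members were higher and 3 lower at an unadjusted p under 0.05 (Apoa5, Apob and Mttp), against 165 and 3352 of all 11104 genes. Without overlap 1 was higher and 2 lower, against 167 and 3981 of all genes. The Mup genes, with a larger share in LKO, are part of that total. With Mup and mitochondrial genes removed before rescaling, the medians were -0.27 for all genes and 0.20 for the members. At an unadjusted p under 0.05, 2 members were then higher and 0 lower, against 345 and 1865 of 11067 genes. With the trend of each library with gene length removed, the medians were 0.0043 for all genes and 0.09 for the members. In each of these settings 7 of the 10 members lay above the median of all genes.

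Among the HDL proteins, Apoa1, which encodes the main HDL protein and activator of cholesterol esterification in plasma, was at 9739.5, 10909 and 12586 FPKM in CON 1 to CON 3. The 3 LKO values, in the same order, were 20480.5, 18116 and 16036 FPKM. All LKO libraries thus lay above all CON libraries, with a mean of 18211 ± 2224 FPKM against 11078 ± 1431 FPKM (SD, n = 3 each), 1.64 times the CON mean. The log2 fold change on the log2(FPKM + 1) scale was 0.72 (SE 0.25), with an adjusted p of 0.196 (limma). It was 0.99 after median-ratio scaling, 0.41 with every library rescaled to the same total, and 0.68 with the length trend removed. The groups did not overlap under any of the 3 ways of scaling or with the length trend removed. The other settings could not bring overlap, since they keep the order of the deposited values.

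Apoa2, the second HDL protein, was at 27653.5, 23041 and 22707 FPKM in CON and at 34689, 38512 and 19906 FPKM in LKO. Both LKO 1 and LKO 2 lay above the CON range and LKO 3 below it, so the difference (log2 fold change 0.29, SE 0.33, adjusted p = 0.589, limma) was smaller than the spread within LKO. Its sign turned with every library rescaled to the same total (-0.02), but not with Mup and mitochondrial genes removed before rescaling (0.27). Apoa4, an apolipoprotein of the intestine and liver that mouse liver makes more of when it stores fat, had the widest spread of the 10. It was at 607, 282 and 811 FPKM in CON and at 1901, 636 and 1258 FPKM in LKO. Both LKO 1 and LKO 3 lay above all CON libraries, LKO 2 lay inside the CON range, and CON 2 was the lowest library. The SD was 267 FPKM around a mean of 567 FPKM in CON and 633 FPKM around 1265 FPKM in LKO. The mean was 2.23 times higher in LKO, with a log2 fold change of 1.15 (SE 0.49, 95% confidence interval 0.0045 to 2.29) and an adjusted p of 0.225 (limma). Leaving out 1 library at a time gave 0.71 to 1.58.

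The apolipoproteins that govern lipoprotein lipase and clearance went different ways. Apoc3, which slows lipolysis and remnant uptake, was at 4599.5, 3917 and 4057 FPKM in CON and at 7201, 7172 and 4318 FPKM in LKO. Apoc1, which hinders receptor uptake of VLDL remnants, was at 10371, 9322 and 9255 FPKM in CON and at 15692.5, 18542 and 8715 FPKM in LKO. For both genes LKO 1 and LKO 2 were above every CON library, while LKO 3 was inside the CON range for Apoc3 and below it for Apoc1. The log2 fold changes were 0.54 (SE 0.27) for Apoc3 and 0.50 (SE 0.33) for Apoc1, with adjusted p-values of 0.271 and 0.361 (limma).

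Apoa5, which promotes triglyceride clearance and is made almost only by the liver, was at 1494, 1415 and 1323 FPKM in CON. In LKO the 3 libraries gave 782, 598 and 1446 FPKM. Both LKO 1 and LKO 2 lay below all CON libraries, and LKO 3 lay within their range. The CON libraries varied by 6.09% (coefficient of variation) and the LKO libraries by 47.3%. The log2 fold change of -0.68 (SE 0.32) had an adjusted p of 0.249 (limma), and with all libraries brought to one total it was -0.99.

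Apoc2, the cofactor of lipoprotein lipase, was at 468, 310 and 487 FPKM in CON and at 521, 443 and 421 FPKM in LKO, a log2 fold change of 0.16 (SE 0.23, 95% confidence interval -0.38 to 0.69, adjusted p = 0.68, limma). CON 2 was its lowest library. Its value is uncertain, since 646 exon bases of Apoc2 are shared on the same strand with Gm44805, a locus with a mean of 45.7 FPKM. Apoe varied least of the 10 as deposited. CON libraries held 37857, 34736 and 31720 FPKM of it, and LKO libraries 37408, 35998 and 30558 FPKM. The log2 fold change of Apoe was -0.01 (SE 0.27), with a 95% confidence interval of -0.63 to 0.62. With all libraries brought to one total it was -0.32. The groups then did not overlap, as for 3981 of 11104 genes in the lower direction.

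For the assembly of VLDL itself, Apob was at 990, 1044 and 1147 FPKM in CON and at 782, 601 and 1059 FPKM in LKO. Mttp, its lipid-loading partner, was at 94.4, 86.7 and 109.7 FPKM in CON and at 75.6, 53.7 and 92.1 FPKM in LKO. In both genes LKO 1 and LKO 2 were below every CON library and LKO 3 was inside the CON range. The log2 fold changes were -0.42 for Apob (SE 0.24) and -0.42 for Mttp (SE 0.23), with adjusted p-values of 0.318 and 0.298 (limma). With all libraries brought to one total they were -0.73 and -0.72. The Apob values of the groups then did not overlap, as for 3981 of 11104 genes in the lower direction. As deposited, Apob and Mttp lay close to the median of genes of their length. It was -0.35 for the 3554 tested genes of 4000 bases or more. For the 4306 genes of 2000 to under 4000 bases it was -0.25.

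Gene length, which the choice of the members did not use, went with the direction of 6 of the 10 members, the 3 shortest and the 3 longest. The lengths in the deposited file run from 518 bases for Apoa2 to 13934 bases for Apob. In LKO 1 and LKO 2 alike, the 3 shortest genes (Apoa2, Apoc1 and Apoc3) were above the CON range and the 3 longest (Apoa5, Mttp and Apob) below it. In LKO 3 none of these 6 genes was on the side on which it stood in LKO 1 and LKO 2. The 4 genes in between followed no such order. Apoc2 among them is hardly longer than Apoc3 (709 bases), and it was above the CON range in LKO 1 but within it in LKO 2. Apoa4 (1815 bases) had the highest log2 fold change of the 10, Apoa1 (1035 bases) was above the shorter Apoa2 and Apoc1, Apoc2 (727 bases) was at 0.16 and Apoe (1408 bases) at -0.01. The relation with length across the 10 members was not tested.

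Over all tested genes LKO 1 and LKO 2 deviated with length in 1 direction, and the CON libraries and LKO 3 in the other. Each gene was centred on its mean over the 6 libraries, so the 2 directions are not separate results. For the same reason these values cannot say which libraries carry the trend. Genes under 1000 bases (1148) had a median log2 deviation from the mean of the 6 libraries of 0.24 in LKO 1 and 0.19 in LKO 2. It was -0.18 in LKO 3, and -0.135, -0.08 and -0.07 in CON 1, CON 2 and CON 3. Genes of 4000 bases or more had -0.22, -0.38 and 0.05 in LKO 1, LKO 2 and LKO 3, and 0.04 to 0.28 in CON.

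**Figure D2:**
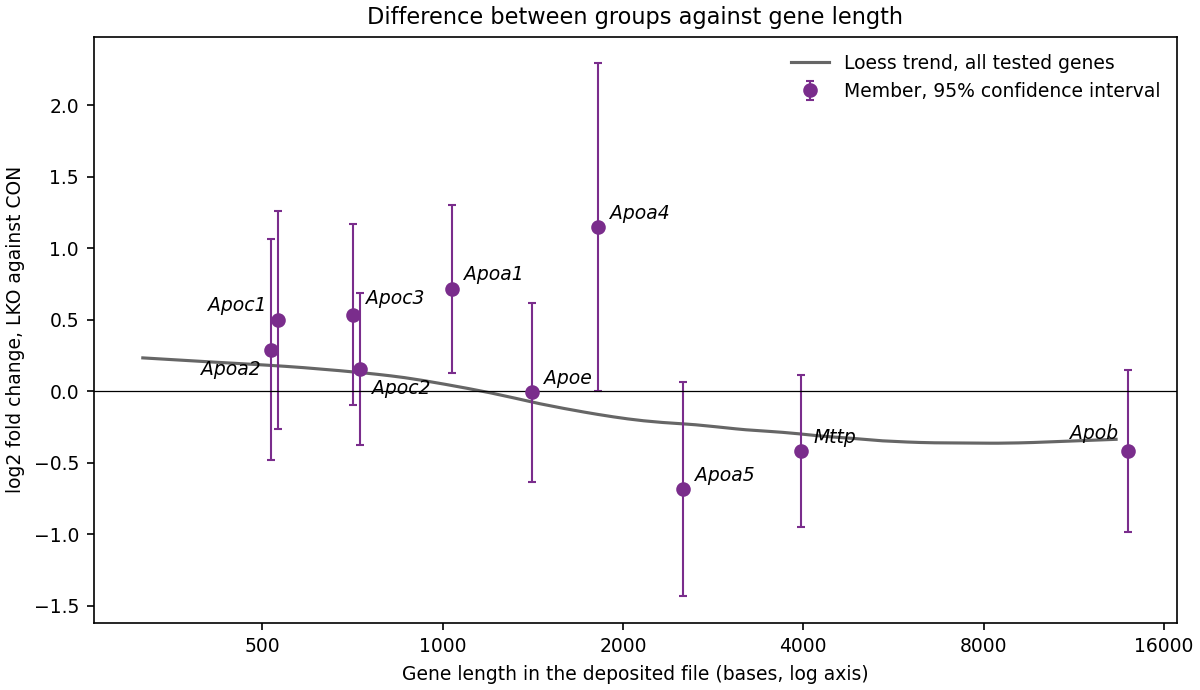
Log2 fold change of LKO against CON of the 10 genes, with 95% confidence intervals from limma, against gene length (log axis); the line is the loess trend of all 11104 tested genes. Apob and Mttp sit near the line, Apoa1 (0.72) and Apoa4 (1.15) above it and Apoa5 (-0.68) below it.

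With each library's length trend removed, Apob moved from -0.42 to -0.07, Mttp from -0.42 to -0.11 and Apoa5 from -0.68 to -0.44. Among the short genes, Apoa2 moved from 0.29 to 0.10, Apoc1 from 0.50 to 0.31 and Apoc3 from 0.54 to 0.40. Apoa4 was then at 1.32. Removing the trend sets each library's centre as well. Median-ratio scaling, which leaves the trend in place, gave -0.15 for Apob, -0.15 for Mttp and -0.41 for Apoa5, and 0.77 for Apoc1 and 0.81 for Apoc3. The signs of Apoa1, Apoa4, Apoa5, Apob, Apoc1, Apoc3 and Mttp were the same under all 14 alternative settings. Members passed under 1 of them, the setting without LKO 3.

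**Figure D3:**
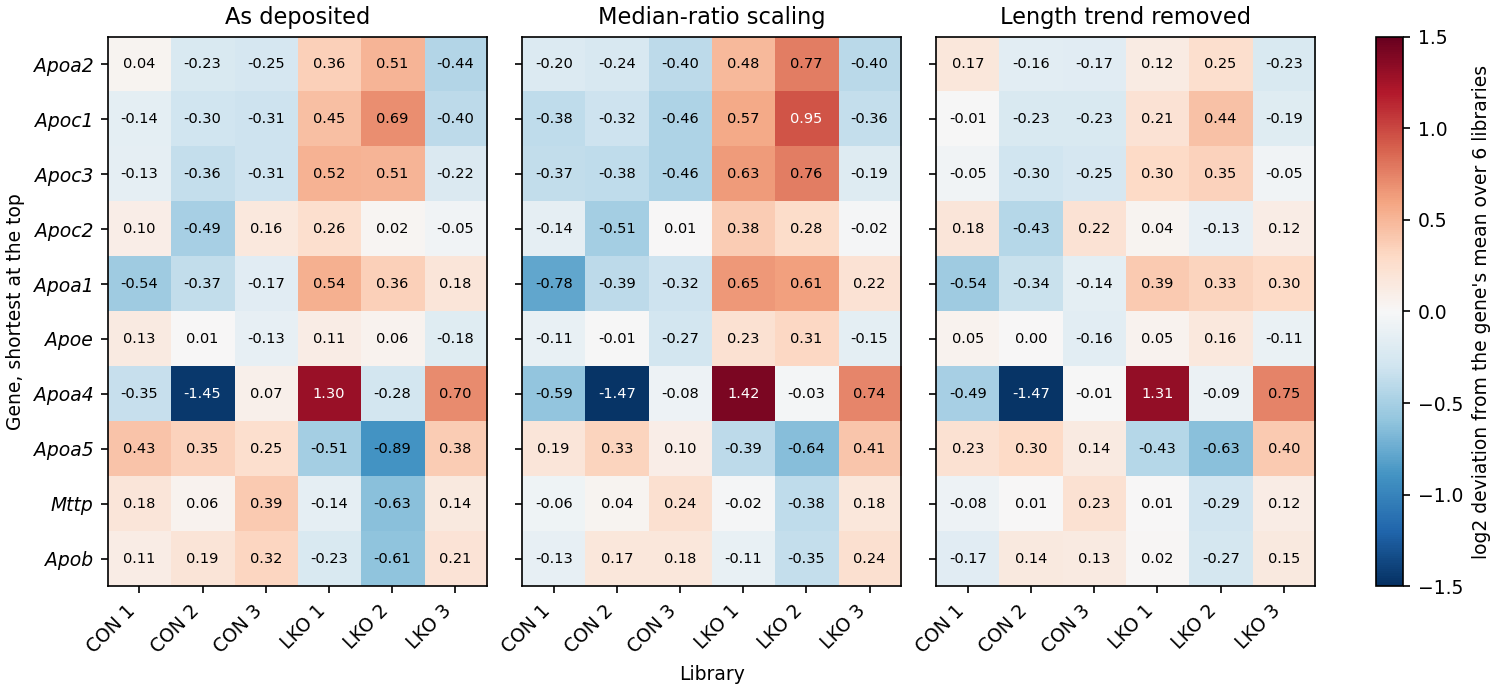
Log2 deviation of each gene from its own mean over the 6 libraries (colour and printed value), with genes ordered by length and libraries in columns, for the values as deposited, after median-ratio scaling and after removal of the length trend. As deposited, the 3 shortest genes are positive and the 3 longest negative in LKO 1 and LKO 2, as in Apoc1 (0.45 and 0.69) and Apob (-0.23 and -0.61), and both contrasts are smaller in the last panel.

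Without LKO 3, 4 of the 10 members passed an adjusted p under 0.05 (limma), as did 2632 of 11150 genes. Apoa5 was then at -1.04 (adjusted p = 0.0203), Apoc3 at 0.78 (0.0356), Apoc1 at 0.82 (0.0403) and Apoa1 at 0.81 (0.0491). Apob was at -0.63 (0.0551) and Mttp at -0.59 (0.0736). Leaving out LKO 2 instead made most of these differences smaller than with all 6 libraries, but not that of Apoa1, which was at 0.72. Without LKO 2 Apoa5 was at -0.41, Apoc3 at 0.42, Apoc1 at 0.28, Apob at -0.22, Mttp at -0.21 and Apoa2 at 0.11. Apoa4 rose to 1.58, and 0 members passed (limma). LKO 3 was the LKO library with the most Cd36 mRNA. It did not deviate with gene length as LKO 1 and LKO 2 did. Over all tested genes its log2 values correlated with those of CON 1 to CON 3 at 0.952, 0.969 and 0.976. With LKO 1 and LKO 2 they correlated less, at 0.9487 and 0.9335, while LKO 1 and LKO 2 correlated with each other at 0.977. The part of any of these traits of LKO 3 in the calls was not tested.

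Ratios of 2 members within a library do not depend on how the library was scaled. The ratio Apoa5/Apoa1 was 0.153, 0.130 and 0.105 in CON and 0.0382, 0.0330 and 0.0902 in LKO. The groups did not overlap, with all LKO ratios the lower and LKO 3 the closest to CON, and the mean log2 ratio differed by -1.40 (exact two-sided permutation test, p = 0.1, the smallest that 3 against 3 libraries allow; 0.5 after adjustment over 5 ratios). In LKO 3 Apoa5 was within its CON range and Apoa1 above its own, so the low ratio there restates the value of Apoa1. Without 1 library at a time the difference ran from -1.85 to -1.12. Apoa1 is a gene of 1035 bases and Apoa5 of 2515, so the ratio is not free of the length trend. In the fits with that trend removed the 2 genes were at 0.68 and -0.44.

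The ratio Apob/Mttp held between 10.5 and 12.0 in CON and between 10.3 and 11.5 in LKO. Its mean log2 value was 3.46 ± 0.12 in CON and 3.46 ± 0.08 in LKO (SD, n = 3 each), a difference of 0.0035 (exact permutation test, p = 1). Apoc1/Apoe was 0.268 to 0.292 in CON and 0.420, 0.515 and 0.285 in LKO 1, LKO 2 and LKO 3 (p = 0.2, exact permutation test). Apoa4/Apoa1 and Apoc3/Apoa1 overlapped between the groups, with log2 differences of 0.43 and -0.18 (p = 0.5 each, exact permutation test). The adjusted p-values of these 4 ratios ran from 0.5 to 1.

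**Figure D4:**
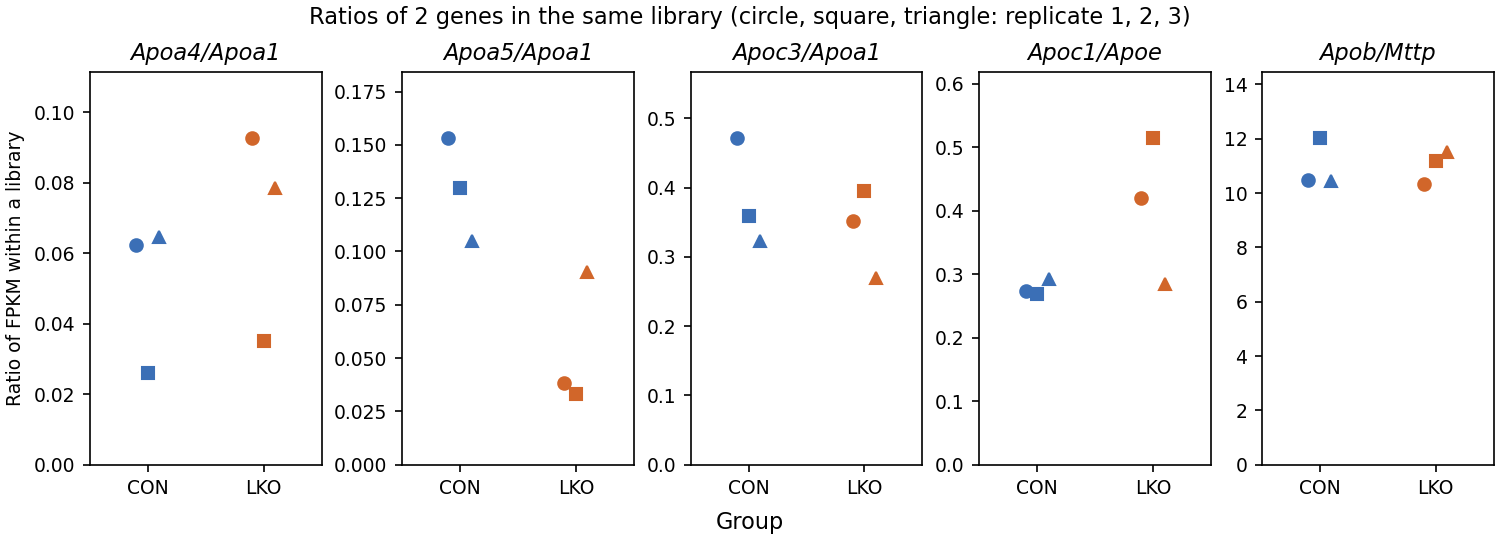
Ratio of the FPKM of 2 genes within each library, for the 5 ratios tested; each panel has its own axis from 0, and symbols are single libraries. Apoa5/Apoa1 is lower in every LKO library than in every CON library, and Apob/Mttp lies between 10.3 and 12.0 in all 6.

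For likeness of pattern, the log2(FPKM + 1) of each gene was centred on its mean over the 6 libraries, and genes were ranked by the root mean square difference. Nearest to Apoa4 were Serpina12, the adipokine vaspin (0.37), the stress-induced gene Gadd45b (0.37) and Hes1, a Notch target gene (0.43), against a standard deviation of 0.95 for Apoa4 itself. Serpina12 was at 18.3, 11.5 and 49.3 FPKM in CON and 79.7, 42.1 and 49.6 FPKM in LKO. Near to Apob were Imp4 and Egln2 (0.03 each), and nearest to Mttp were Mtrex, Psip1 and Ube2l6 (0.04 each), against a standard deviation of 0.35 for each of the 2 genes. The best of 11104 genes over 6 libraries are near by selection.

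Of 9 other apolipoprotein and HDL genes, 8 were expressed enough to test, and 0 passed over all genes (limma); 1 was lower at an unadjusted p under 0.05, against 18.9% of all genes. Their median log2 fold change was -0.30, beside -0.23 for all genes. The genes of smallest p were Saa4, a constitutive HDL protein (211 ± 68.1 FPKM in CON and 98.1 ± 43.8 FPKM in LKO), Apoc4, Pon1 and Clu, a secreted chaperone carried on HDL. Apoc4, the neighbour of Apoc2 and Apoc1, was at 1745, 1793 and 1880 FPKM in CON and at 3478, 3681 and 1859 FPKM in LKO, a log2 fold change of 0.67 (adjusted p = 0.23, limma). As for Apoc1, LKO 1 and LKO 2 were high and LKO 3 was not. Pon1, the HDL-bound paraoxonase, was at 554 to 774 FPKM in CON and 491 to 529.9 FPKM in LKO.

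Of 24 genes of VLDL lipidation and secretion, 24 were tested and 0 passed (limma), with 6 lower and 0 higher at an unadjusted p under 0.05, against 18.9% of all genes lower. The groups did not overlap in the lower direction for 10, against 24.3% of all genes. These counts were 3 and 4 after median-ratio scaling, against 929 and 1282 of all 11104 genes. With the length trend removed they were 4 and 7, against 941 and 1315 of all genes. The list's median was -0.25, beside -0.23 for all genes, and after median-ratio scaling 12 of the 24 had a negative value. Dgat2, which makes triglyceride for VLDL and lipid droplets, was at 295, 269.9 and 269.2 FPKM in CON and at 112, 136 and 192 FPKM in LKO. Ces1d, a lipase that mobilises stored triglyceride for VLDL, had means of 493 ± 131 FPKM (CON) and 255 ± 19.9 FPKM (LKO; SD, n = 3 each). Mia2, part of the export site for large lipoprotein cargo, was at 106 ± 15.8 and 58.9 ± 21.6 FPKM, and Lpcat3, which puts polyunsaturated chains into membrane phospholipid, at 42.2 ± 5.30 and 29.1 ± 2.74 FPKM. All 6 libraries of each of these 4 genes were separated by group, with adjusted p-values of 0.17 to 0.187 (limma). With the length trend removed their log2 fold changes were -0.73, -0.72, -0.56 and -0.29. P4hb, the other subunit of the MTTP complex, named here after its values were seen, was at 509 ± 39.8 and 450 ± 111 FPKM.

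The 13 genes of APOB mRNA editing and protein degradation were all tested and 0 passed (limma), with 2 lower at an unadjusted p under 0.05, against 18.9% of all genes, and a median of -0.19 (0.07 after median-ratio scaling). Both belong to the editing complex that shortens APOB to APOB48. A1cf, which docks the editing enzyme on Apob mRNA, was at 37.1, 28.8 and 30.1 FPKM in CON and 8, 7.09 and 19.3 FPKM in LKO. Rbm47, an RNA-binding partner of the enzyme, was at 16.0, 13.7 and 13.0 FPKM in CON and 7.92, 8.07 and 8.86 FPKM in LKO. Their log2 fold changes were -1.53 (SE 0.34) and -0.71 (SE 0.17), with adjusted p-values of 0.165 and 0.167 (limma), and -1.24 and -0.36 with the length trend removed. The enzyme gene Apobec1, named after its values were seen, was at 7.88, 9.52 and 14.4 FPKM in CON and 12.4, 10.6 and 30.6 FPKM in LKO. FPKM do not measure editing. The ER chaperone gene Canx (112 ± 9.65 and 70.4 ± 49.5 FPKM) came next, with LKO 3 above the CON range.

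Of 24 transcription factors and cofactors that act on apolipoprotein genes, 22 were tested and 0 passed (limma), with 8 lower at an unadjusted p under 0.05, against 18.9% of all genes. No overlap between groups, in the lower direction, was seen for 10, against 24.3% of all genes. After median-ratio scaling these counts were 4 and 5, against 929 and 1282 of all 11104 genes. With the length trend removed they were 3 and 4, against 941 and 1315 of all genes. The list's median was -0.58, and 18 of 22 had values under the all-gene median. The median of the list was -0.32 after median-ratio scaling and -0.27 with the length trend removed. The genes of smallest p were Srebf1, Thrb, Nr1h4 and Nr5a2, with log2 fold changes of -1.18, -0.80, -0.62 and -0.78 and adjusted p-values of 0.176 to 0.179 (limma). With the length trend removed they were at -0.86, -0.44, -0.42 and -0.45. Srebf1, which drives fatty acid synthesis, had means of 10.8 ± 5.04 FPKM (CON) and 3.87 ± 0.39 FPKM (LKO). The thyroid hormone receptor gene Thrb had 6.20 ± 0.90 FPKM (CON) and 3.19 ± 0.93 FPKM (LKO). The bile acid receptor gene Nr1h4 was at 56.5, 63.8 and 76.4 FPKM in CON and 45.4, 43.5 and 37.4 FPKM in LKO, and LKO 3 was its lowest library. Nr5a2, which encodes LRH-1, was at 12.4 ± 2.61 and 6.84 ± 1.86 FPKM. Named after their values were seen, Creb3l3, which drives Apoa4 and Apoc2, was at 237 to 240 FPKM in CON and 170, 127 and 236 FPKM in LKO, and Hnf4a, the hepatocyte nuclear receptor of most of these genes, at 129 to 175 FPKM in CON and 73.3, 71.3 and 201.5 FPKM in LKO.

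**Figure D5:**
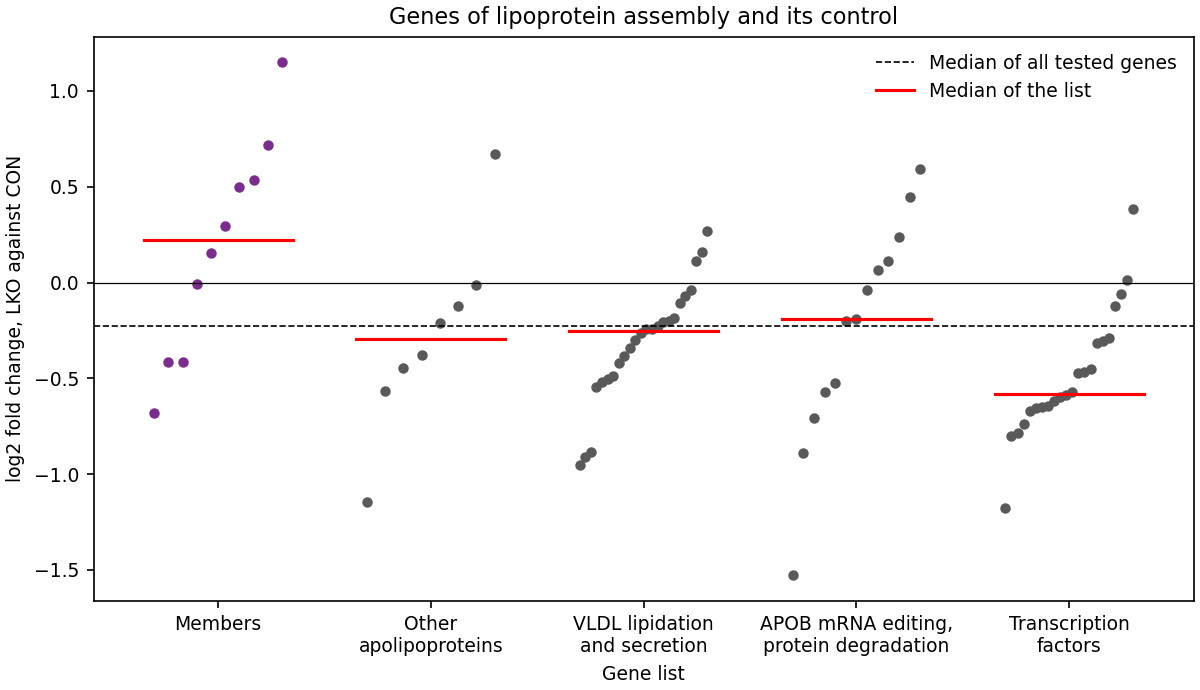
Log2 fold change of LKO against CON of each tested gene in the 10 members and the 4 lists, sorted within a list; red lines are list medians and the dashed line is the median of all tested genes (-0.23). The members' median is 0.22 and that of the transcription factors -0.58, while the other 3 lists lie near the dashed line (-0.30, -0.25 and -0.19).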

How the data were processed

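The authors deposited FPKM for every gene in each library, with 2 decimals. The submitters' processing notes name HISAT2, StringTie and build mm9. Tool versions, annotation and strand use were not given in the sources used here. Gene lengths in bases were read from the same deposited table. Of 56536 lines, 2 only continued an annotation text. FPKM times length did not fall on whole reads (at most 33.3% of low values within 0.1 of a multiple of any step tried), so the depth in reads is unknown and no count model was fitted. The members and gene lists were chosen with earlier results of these data known.

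Genes averaging 1 FPKM or more (11104) were tested as log2(FPKM + 1) with limma 3.58.1 in R 4.3.3 (two-sided, mean-variance trend, group as the only term), with Benjamini-Hochberg adjustment and a threshold of 0.05; all 10 members passed this filter. The method was tested on simulated data. A fold change on this scale is understated for low genes. Ratios were tested by exact permutation. All 10 members are named, and of each list the 4 genes of smallest p; others are marked, and 2 genes that these rules name are not reported here. Exons of Apoa4, Apoa5 and Mttp overlap antisense genes at 0 to 1.33 FPKM. Promoters are from RefSeq, and overlaps from GENCODE M21, both GRCm38. Alternatives changed the pseudocount (0.1), the filter (none, or 5), the scaling (3 ways), the length trend, a replicate block and the libraries included.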

Additional observations from a re-analysis of the deposited data

How the results depend on the processing

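The count of members called, 0, was 0 under the other settings and 0 to 4 when single libraries were left out, with 4 reached only without LKO 3. Over all genes the count of 1 became 0 with a pseudocount of 0.1, with no filter, with a filter at 5 FPKM, with the length trend removed and with the replicate block, 2 with all libraries rescaled to one total, and 0 to 2632 without single libraries. Over the listed genes the count of 0 became 0 to 22 without single libraries, 22 being without LKO 3. The number of ratios without overlap, 1, was 1 to 2 without single libraries. The cause of these moves was not tested.

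Signs turned for 3 members and 1 ratio. Apoa2 was at -0.018 and Apoc2 at -0.15 with all libraries rescaled to one total, and Apoc2 ranged from -0.052 to 0.27 without single libraries. With Mup and mitochondrial genes removed before rescaling, Apoa2 was at 0.27 and Apoc2 at 0.13. Apoe was at 0.26 after median-ratio scaling and 0.070 with the length trend removed, and ranged from -0.071 to 0.082 without single libraries. The Apob/Mttp difference was -0.0014 with 1 added to each FPKM and ranged from -0.031 to 0.071 without single libraries. After median-ratio scaling 1070 genes were higher and 929 lower at an unadjusted p under 0.05, against 361 and 2099 as deposited. The libraries of the 2 groups share numbers, but deviations of same-numbered libraries correlated at -0.05, 0.17 and 0.07, so the numbers were not taken as pairs; the replicate block gave 0 genes called. The depth in reads is unknown, so counting error could not be set apart from other spread.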
